A study of Homo sapiens with 50 samples.

Results

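This account describes 31 genes of protein folding and quality control in the endoplasmic reticulum (ER) and of the unfolded protein response, chosen by name from the 57905 genes of the deposited tables. Each symbol matched a gene in both tables, and all 31 genes passed the filter on low values in both. By role, 8 are luminal Hsp70 and Hsp90 chaperones and their cofactors, 6 are lectin chaperones and disulfide isomerases, 2 are stress-inducible luminal or secreted factors, 8 act in ER-associated degradation (ERAD), 4 are stress sensors or XBP1, and 3 belong to the translocon.

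Proteins that enter the ER are folded by the Hsp70 chaperone BiP (HSPA5), the Hsp90 chaperone GRP94 (HSP90B1), the calnexin and calreticulin cycle for glycoproteins, and disulfide isomerases. Chains that fail to fold are drawn back to the cytosol and degraded by ERAD. When unfolded chains build up, the membrane sensors IRE1 (ERN1), ATF6 and PERK (EIF2AK3) raise the transcription of chaperone and ERAD genes, IRE1 through splicing of the XBP1 mRNA, and PERK also slows translation and raises ATF4, the factor of the integrated stress response.

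The libraries were made from H1, an established human embryonic stem cell line of wild-type genotype, all labelled as cardiac differentiation. Undifferentiated cells of day 0 form 1 group, and cultures of days 3, 5, 7 and 11 form 6 groups on each day. The first is the differentiation control, whose titles name no agent. The others are HCl, NaHCO3 (sodium bicarbonate), IWP2 (an inhibitor of WNT secretion), IWP2 plus NaHCO3, and IWP2 plus NaHCO3 plus 2-DG. The last agent is 2-deoxyglucose, which resembles glucose and blocks glycolysis, and the cultures given it carry IWP2 and NaHCO3 as well. Doses, times of addition and pH are not given in the sources used here, so acidity and any other effect of HCl cannot be told apart. Each of the 25 groups has 2 libraries, 50 in all, and the labels do not say that they came from separate cultures, so p-values measure only the spread between these libraries.

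The libraries of days 3 and 5, which share 1 table, held 14794134 to 22796553 counts each, and those of days 7, 11 and 0 held 14090004 to 20445875. Tests were made only within a table. Levels are FPKM, counts scaled to exon length and library size. A gene was called, and is said to have risen or fallen, when edgeR's quasi-likelihood test put its adjusted p below 0.05 and the levels differed 2-fold or more. The summed FPKM of 6 pluripotency markers was 1831 and 1845 in the undifferentiated libraries, and all 6 were detected there. Summed heart muscle markers (8 genes) reached 6060 and 6116 with HCl on day 11 and were at 647 and 889 in the control of that day, so the label of cardiac differentiation covers cultures that differ widely in heart muscle RNA. In bulk RNA a smaller share of cells of a type and less RNA per cell cannot be told apart.

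The 2 libraries given 2-DG on day 3 stood apart from each other more than any other pair. Their counts differed with a chi-square of 138.58 per gene, and the other 24 pairs lay between 2.02 and 27.6. Over 12061 genes, the log2 ratio of replicate 1 to replicate 2 correlated with log2 exonic size at r = -0.62, and the other pairs lay between -0.37 and 0.35. Some long members were lower in replicate 1: HYOU1 was at 63.0 and 107 FPKM and SEL1L at 9.53 and 19.2. Other long members were higher in it, among them DERL2 (6386 exonic bases) and DNAJB11 (6040). Short members were higher in it: SDF2L1 was at 139 and 60.8 FPKM and SEC61B at 103 and 61.2. HSPA5 was at 601 and 599. For the members called in that group, and for ERN1, values without each library are given below. The fit estimated spread from all libraries of a table, so this pair also entered the p-values of other groups in its table. With replicate 1 or 2 left out, adjusted p-values on the later day of that table were lower for HSPA5 (2-DG) and HERPUD1 (HCl). Their log2 fold changes moved little. With both left out, the 10 counts of called members compared stayed within 1.5 times the reported ones.

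Promoters of the members were searched for the ER stress response elements, the sites through which ATF6 and XBP1 are known to act with NF-Y. The letters searched on both strands were CCAAT, 9 bases of any kind and CCACG (ERSE), and ATTGG, 1 base of any kind and CCACG (ERSE-II). The windows ran from 250 bases before to 50 after each RefSeq gene start on GRCh38.p14. An ERSE stood in 27 of 35116 promoters (0.0769%), an ERSE-II in 19 (0.0541%), and no promoter held both. Counted by gene symbol, as the members are, these were 25 of 27305 (0.0916%) and 19 (0.0696%). The table had 28 of the 31 members, DERL1, DERL3 and PDIA3 being the others. Of these 28, 8 held an ERSE and 3 an ERSE-II. The members with a match are shown because they include those with the largest response to 2-DG below. A match is a description of these letters and not a bound site, and members without one hold other letters in this window. The 250 bases before the start are printed for HSPA5 (minus strand, chr9:125241344-125241593) and HERPUD1 (plus strand, chr16:56931892-56932141). For the other members the match is printed with 12 bases on each side, read along the gene's strand. Capitals mark the fixed letters of the motif, and matches on the opposite strand read CGTGG before ATTGG or CCAAT.
HSPA5: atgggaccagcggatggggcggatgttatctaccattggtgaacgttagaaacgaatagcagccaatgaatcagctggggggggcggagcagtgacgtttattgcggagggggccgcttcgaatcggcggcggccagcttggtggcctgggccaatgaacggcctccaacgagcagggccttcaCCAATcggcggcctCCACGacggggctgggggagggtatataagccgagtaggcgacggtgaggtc
HERPUD1: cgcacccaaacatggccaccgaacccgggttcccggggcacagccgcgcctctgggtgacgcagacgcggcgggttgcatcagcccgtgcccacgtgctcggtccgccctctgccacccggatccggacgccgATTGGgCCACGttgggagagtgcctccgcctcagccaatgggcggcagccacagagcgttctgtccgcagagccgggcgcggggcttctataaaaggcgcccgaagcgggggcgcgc
HSP90B1 (the 5′ match): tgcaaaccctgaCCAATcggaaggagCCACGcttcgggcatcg
HSP90B1 (the 3′ match): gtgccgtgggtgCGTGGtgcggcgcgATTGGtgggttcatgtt
XBP1: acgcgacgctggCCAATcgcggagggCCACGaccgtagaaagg
PDIA6: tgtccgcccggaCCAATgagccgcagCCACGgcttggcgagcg
CANX: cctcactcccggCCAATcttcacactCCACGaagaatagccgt
CALR: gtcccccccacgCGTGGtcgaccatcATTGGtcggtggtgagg
CRELD2: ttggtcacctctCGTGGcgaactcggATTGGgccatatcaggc
SERP1: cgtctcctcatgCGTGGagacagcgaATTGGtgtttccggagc
HYOU1 (the 5′ match): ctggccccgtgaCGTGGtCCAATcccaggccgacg
HYOU1 (the 3′ match): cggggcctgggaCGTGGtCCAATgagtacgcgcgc
SDF2L1: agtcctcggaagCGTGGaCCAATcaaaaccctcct

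Across the 25 groups the most abundant members were chaperones, and the sensors were scarce. The median of the group means was 334 FPKM for CALR (calreticulin), 240 FPKM for HSP90B1 and 188 FPKM for HSPA5. ERN1 had a median of 1.22 FPKM and DERL3, a derlin of the retrotranslocation channel, 0.745. For most members the highest of the 25 group means was that of 2-DG on day 5. The exceptions were DNAJB9 and DERL1 (2-DG, day 7), EDEM1 (NaHCO3, day 7), EDEM2 (control, day 5), ERN1 (HCl, day 5) and ATF6 (HCl, day 11). The ratio of the highest to the lowest group mean ran from 2.1 for DERL1 to 35.9 for SDF2L1, with 26.5 for HERPUD1 and 24.0 for HYOU1. These ratios span both tables and were not tested.

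**Figure D1:**
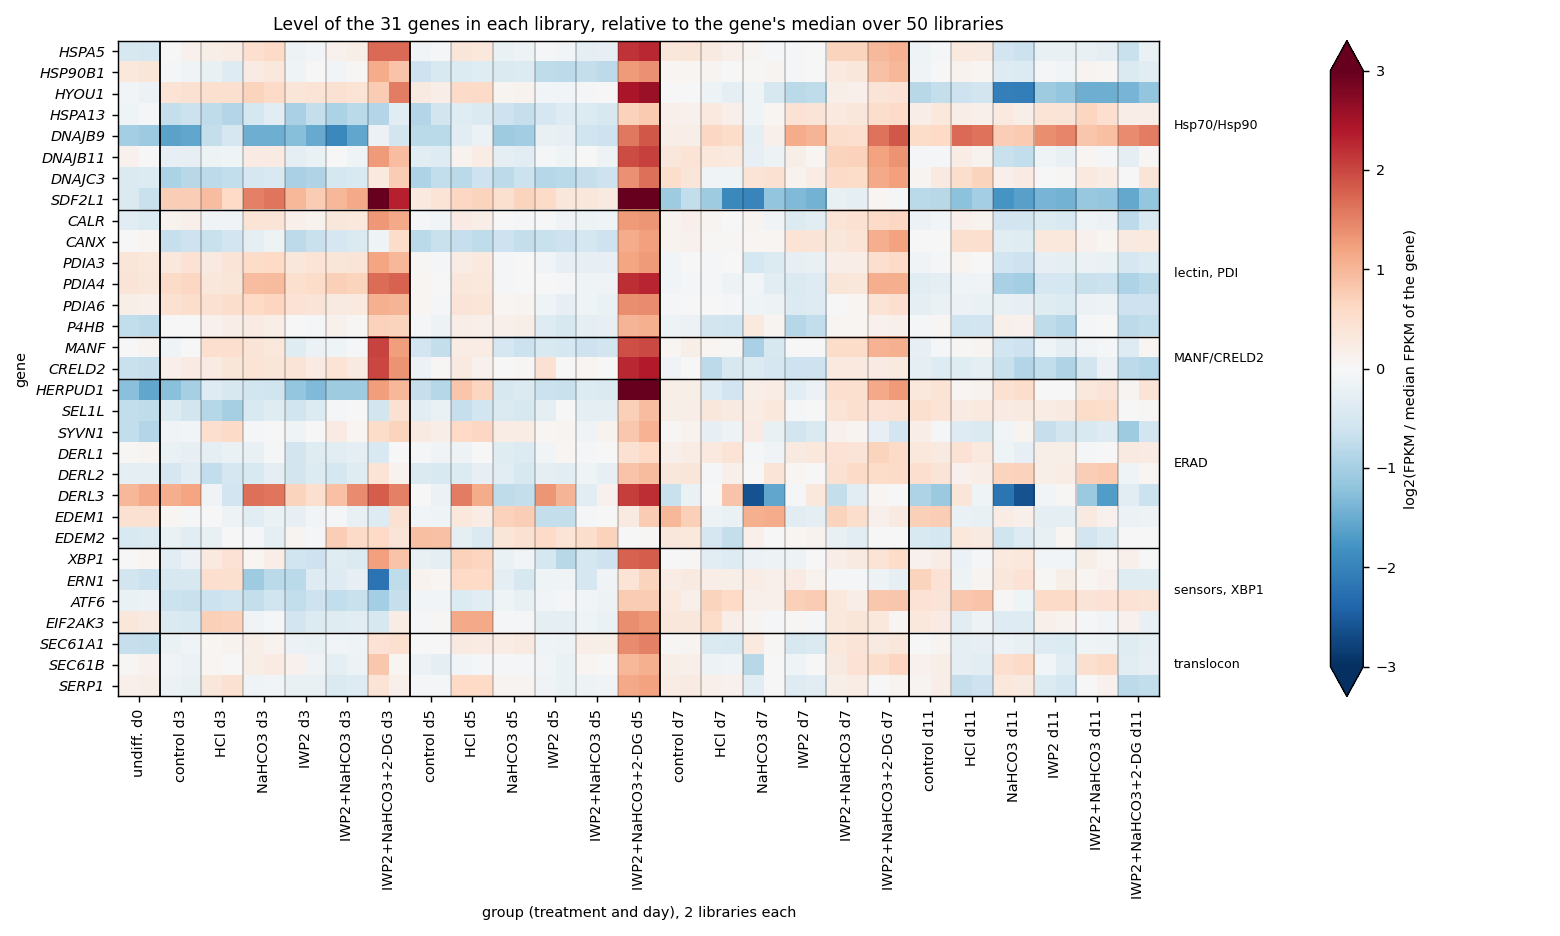
Level of each of the 31 genes (y axis, grouped by role) in each of the 50 libraries (x axis, 2 per group, ordered by day), as log2 of FPKM over the gene's median, with colours saturating at 3 in either direction. The 2 libraries with 2-DG on day 5 are the darkest red pair for most genes, with HSPA5 at 832 and 891 FPKM, and the unequal pair with 2-DG on day 3 is visible in SDF2L1 and HYOU1.

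Most members rose when 2-DG was added to IWP2 and NaHCO3 on day 5. There 28 of the 31 members rose and 0 fell, beside 16.5% of the 17286 genes tested called in either direction and 7.04% called higher. The median log2 fold change was 1.68 over the members and -0.01 over all genes. The summed FPKM of the 31 members was 4904 and 5195 in the libraries with 2-DG and 1403 and 1393 in those without.

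Among the Hsp70 and Hsp90 chaperones, all 8 members rose on day 5, by a median of 2.43 on the log2 scale. HSPA5 (ENSG00000044574, chr9:127997132-128003609 on GRCh37), the master chaperone that also holds the sensors inactive, was at 832 and 891 FPKM with 2-DG and at 152 and 155 without, 6.32-fold higher (log2 2.66 ± 0.10 SE, adjusted p = 1.31e-13). HSP90B1 was at 592 and 631 against 149 and 141 FPKM, a log2 fold change of 2.25 ± 0.12 (adjusted p = 3.03e-11). In both genes every library with 2-DG lay above every library without.

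HYOU1, the nucleotide exchange factor of BiP, was at 199.96 and 223 FPKM with 2-DG and at 35.5 and 36.3 without (log2 2.73 ± 0.14, adjusted p = 7.79e-12). SDF2L1, a partner of the J-domain protein ERdj3, went to 130.4 and 137 from 15.2 and 14.6 FPKM (log2 3.34 ± 0.27, adjusted p = 7.70e-09). DNAJB9, the J-domain cofactor ERdj4 that restrains IRE1, was at 38.4 and 46.8 against 8.45 and 8.31 FPKM (log2 2.52 ± 0.15, adjusted p = 1.06e-10). The groups did not overlap in any of these genes, which was a condition for naming HYOU1 here. DNAJB11 (ERdj3) had a log2 fold change of 2.25 and DNAJC3 (p58IPK) of 2.34, and HSPA13, an Hsp70-like ATPase, had the least in its class at 1.35.

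All 6 lectin chaperones and disulfide isomerases rose on day 5, by a median of 1.70 on the log2 scale. CALR was at 813 and 835 FPKM with 2-DG and at 302 and 306 without (log2 1.61 ± 0.10, adjusted p = 2.96e-10). PDIA4 (ERp72) had the largest log2 fold change of the class, 2.54 ± 0.09, and P4HB (protein disulfide isomerase) the least, 1.47 ± 0.10. MANF, an ER-resident factor secreted under stress, was at 112.5 and 116 FPKM with 2-DG and at 19.2 and 20.3 without (log2 2.71 ± 0.19, adjusted p = 9.90e-10). CRELD2, a stress-inducible luminal factor, rose by 2.46 ± 0.19 on the log2 scale.

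The ERAD genes were the most varied class on day 5, with log2 fold changes from -0.43 to 3.93. HERPUD1 (ENSG00000051108, chr16:56965960-56977798 on GRCh37), a membrane protein that organises the HRD1 ligase, went to 77.8 and 88.4 from 6.19 and 6.07 FPKM, 15.3-fold higher (log2 3.93 ± 0.14, adjusted p = 5.46e-14). It had the largest log2 fold change of the 31 members in that comparison. SEL1L, the adaptor of the ligase, rose by 1.28 ± 0.17, SYVN1 (HRD1) by 1.11 ± 0.10, DERL2 by 1.27 ± 0.14, and DERL3 by 2.40 ± 0.24 from a low level. SYVN1 was not called when either of 2 libraries was left out, its log2 fold change then being 0.991 or 0.999.

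The 3 members not called on day 5 are all ERAD genes. DERL1, another derlin, had a log2 fold change of 0.72 ± 0.11 (adjusted p = 1.90e-05). EDEM1, a mannosidase-like protein that hands glycoproteins to ERAD, had 0.73 ± 0.17 (adjusted p = 0.00178). EDEM2, the mannosidase that starts this trimming, was at 7.28 and 7.47 FPKM with 2-DG and at 10.5 and 11.9 without (log2 -0.43 ± 0.14, adjusted p = 0.0159), the 1 member of 31 that was lower.

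XBP1, the transcription factor of the IRE1 branch, was at 119.95 and 123.69 FPKM with 2-DG on day 5 and at 24.6 and 23.0 without (log2 2.53 ± 0.14, adjusted p = 4.76e-11). Gene counts do not show whether its mRNA was spliced. Of the sensors, EIF2AK3 was at 12.6 and 11.8 against 4.37 and 4.19 FPKM (log2 1.68 ± 0.13, adjusted p = 2.35e-09), and ATF6 rose by 1.05 ± 0.09. ERN1, at 1.66 and 2.00 against 0.880 and 1.17 FPKM, was just at the threshold with a log2 fold change of 1.00 ± 0.23, and 6 other settings put it between 0.798 and 0.986, uncalled. The translocon members rose by 1.45 ± 0.09 (SEC61A1, the channel), 1.18 ± 0.18 (SEC61B) and 1.46 ± 0.11 (SERP1, a channel-associated protein).

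**Figure D2:**
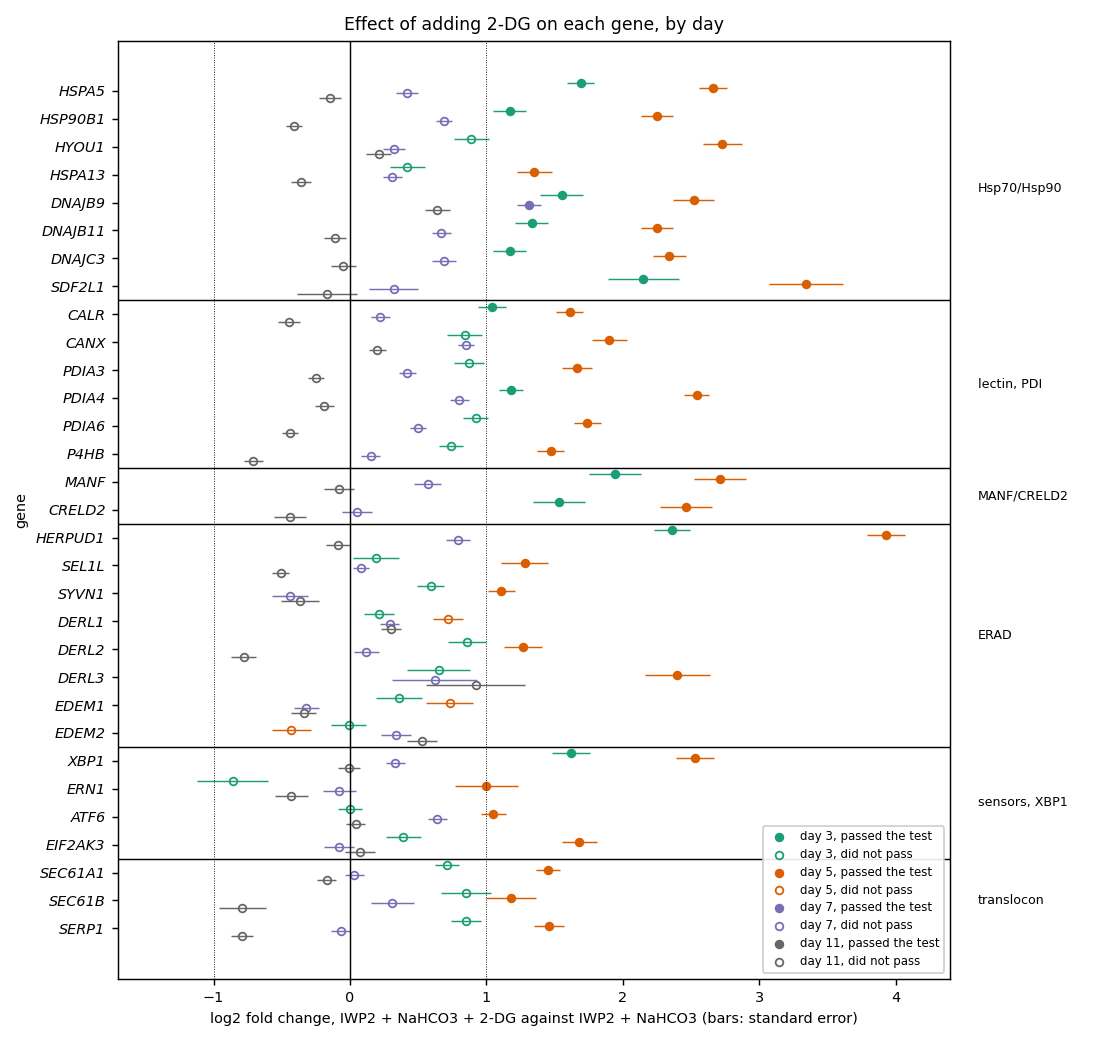
Log2 fold change (x axis) of each member (y axis, grouped by role) for IWP2 + NaHCO3 + 2-DG against IWP2 + NaHCO3 on days 3, 5, 7 and 11, with bars of 1 standard error and filled points for genes that passed the test. Points of day 5 lie farthest right for most genes, up to 3.93 for HERPUD1, and none of day 11 reach the dotted lines at 1 in either direction.

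On day 3, 12 of the 31 members rose with 2-DG and 0 fell, beside 3.59% of all genes tested called in either direction. The median log2 fold change was 0.86 over the members and 0 over all genes. HERPUD1 was at 19.8 and 16.6 FPKM with 2-DG and at 3.95 and 3.92 without (log2 2.36 ± 0.13, adjusted p = 6.31e-10). HSPA5 was at 601 and 599 against 202 and 210.3 FPKM (log2 1.69 ± 0.10, adjusted p = 7.65e-10). XBP1 was at 83.2 and 64.2 against 27.5 and 26.0 FPKM (log2 1.62 ± 0.14, adjusted p = 2.72e-07). In these 3 genes both libraries with 2-DG lay above both without. Left out in turn, replicates 1 and 2 of the 2-DG group gave 2.13 and 2.56 for HERPUD1, 1.59 and 1.77 for HSPA5, and 1.31 and 1.86 for XBP1.

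Among the members called, SDF2L1 and MANF had the most unequal libraries with 2-DG. SDF2L1, at 139 and 60.8 against 24.3 and 26.6 FPKM, had a log2 fold change of 2.15 ± 0.26 (adjusted p = 2.07e-05), which was 1.31 without replicate 1 and 2.68 without replicate 2 of the 2-DG group. MANF, at 121 and 70.4 against 27.2 and 28.9 FPKM, had 1.94 ± 0.19 (adjusted p = 1.09e-06), with 1.38 and 2.34 in the same order. The other 7 members called were DNAJB9, DNAJB11, DNAJC3, HSP90B1, PDIA4, CALR and CRELD2, with log2 fold changes from 1.04 to 1.55. Without replicate 1 of the 2-DG group they ranged from 0.867 (CALR) to 1.31 (DNAJC3), and without replicate 2 from 1.02 (DNAJC3) to 1.89 (CRELD2). HSP90B1 and CALR were not called without replicate 1 (0.939 and 0.867). By role, medians without replicate 1 and without replicate 2 were 1.20 and 1.46 for the Hsp70 and Hsp90 class. They were 0.83 and 1.03 for lectin chaperones and isomerases, and 1.22 and 2.11 for MANF and CRELD2. For ERAD they were 0.56 and 0.39, for the sensors and XBP1 0.35 and 0.01, and for the translocon 0.62 and 1.05.

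No sensor rose on day 3. EIF2AK3 had a log2 fold change of 0.39 ± 0.13 and ATF6 of -0.00 ± 0.09, and the libraries with and without 2-DG overlapped in both. ERN1, at 0.270 and 0.740 FPKM against 0.95 and 1.05, had -0.86 ± 0.26 (adjusted p = 0.0283), and it was at -0.376 (adjusted p = 0.25), uncalled, without replicate 1 and at -1.66, called, without replicate 2 of the 2-DG group. With no minimum fold, 24 members were past an adjusted p of 0.05 upward, beside 9.49% of all genes, and ERN1 was the 1 member past it downward, beside 7.39%.

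The effect of 2-DG was larger on day 5 than on day 3 for 12 members by the test of the difference itself, and smaller for 0, beside 11.5% of all genes called in that contrast. The median of the difference was 0.93 on the log2 scale over the members and -0.03 over all genes. HYOU1 differed by 1.84 ± 0.18 (adjusted p = 5.11e-07) and ERN1 by 1.86 ± 0.35 (adjusted p = 5.27e-04). Without replicate 1 or replicate 2 of the 2-DG group of day 3 these were 1.55 and 2.16 for HYOU1, and 1.35 and 2.66 for ERN1. SDF2L1, with 1.19 ± 0.36 (adjusted p = 0.023), had 2.00 without replicate 1 and 0.659, uncalled, without replicate 2, and it also lost the call when any of 4 other libraries was left out. Without replicate 1 of that group CANX (0.8), SEL1L (0.704) and ATF6 (0.957) were not called, and without replicate 2 HSP90B1 (0.878) was not. SEL1L was also not called without replicate 2 of the 2-DG group of day 5 (0.985). The other 7 members, HYOU1, ERN1, DNAJC3, PDIA4, HERPUD1, DERL3 and EIF2AK3, were called under every setting run.

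On day 7, 1 of 31 members rose with 2-DG and 0 fell, beside 16.3% of 18451 genes called, a share above that of the members. It was DNAJB9, at 39.8 and 46.5 FPKM with 2-DG and at 18.6 and 18.2 without (log2 1.31 ± 0.09, adjusted p = 8.83e-14). HSPA5 was at 363 and 381 against 294 and 294 FPKM (log2 0.42 ± 0.08, adjusted p = 8.88e-05), and HERPUD1 at 18.1 and 20.0 against 11.8 and 11.5 (0.79 ± 0.09). Past an adjusted p of 0.05 with no minimum fold were 18 members upward and 2 downward, beside 25.0% and 22.7% of all genes. The median was 0.32 over the members and 0 over all genes.

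On day 11, 0 members were called with 2-DG, beside 21.1% of all genes. With no minimum fold the edgeR test gave 6 upward and 16 downward, beside 24.9% and 26.8% of all genes, and the median was -0.17. HSPA5 was at 117 and 161 FPKM with 2-DG and at 159 and 153 without, and these groups overlapped. P4HB was at 68.0 and 70.7 against 113 and 118 FPKM (log2 -0.71 ± 0.07, adjusted p = 2.23e-10), below its control without reaching the fold threshold. By the test of the difference, the effect was lower on day 11 than on day 7 for 2 members, HSP90B1 (-1.10 ± 0.09, adjusted p = 5.21e-11) and SEC61B (-1.10 ± 0.23, adjusted p = 0.00175), beside 9.64% of all genes.

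Markers of other cell types moved with 2-DG too. Summed stromal markers (6 collagen and matrix genes, all detected except 1 in 1 library) were at 503 and 564 FPKM with 2-DG on day 5 and at 1688 and 1785 without. On day 7 they were at 370 and 302 against 2542 and 2411. Liver and foregut markers (8 genes) were at 32.5 and 25.2 with 2-DG on day 5 against 249.9 and 253 FPKM. Heart muscle markers were at 986 and 868 against 588 and 612 FPKM on day 5, and at 4039 and 3969 against 631 and 690 on day 7. Epithelial markers (4 genes, all detected) were at 2329 and 2265 with 2-DG on day 5 against 1227 and 1232 FPKM, and at 601 and 603 against 717 and 719 on day 7. On day 11 heart markers were at 6406 and 5845 with 2-DG against 393 and 409.6 FPKM, stromal markers at 353 and 460.5 against 3643 and 3716, and liver markers at 184 and 194 against 5525 and 5112. On day 3 the sums of heart markers (32.5 and 17.4 against 26.4 and 15.2) and of stromal markers (40.5 and 52.8 against 57.8 and 54.4) were low in all 4 libraries, and primitive streak markers (5 genes) were at 64.2 and 65.3 with 2-DG against 127 and 154 FPKM. The part of cell composition in the 2-DG results was not tested.

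Cultures given IWP2 alone were nearer to the 2-DG cultures in those marker sums on day 7, with heart markers at 6418 and 5893 FPKM and stromal markers at 338 and 518. Endothelial markers (4 genes) went the other way that day, at 241 and 225 FPKM with IWP2 alone. They were at 139 and 128 with 2-DG, and at 161 and 154 with IWP2 plus NaHCO3. Set against IWP2 alone, a comparison chosen after the data were seen, the 2-DG cultures had 14 members called higher on day 3, 27 on day 5, 8 on day 7 and 0 on day 11, with 0 lower on each day. All genes called made up 7.56%, 16.1%, 6.87% and 5.79% in these comparisons. On day 11 the edgeR test with no minimum fold gave 3 members upward and 3 downward, beside 12.1% and 12.9% of all genes. The 8 members of day 7 included PDIA4 (log2 1.51 ± 0.07), HERPUD1 (1.47 ± 0.09), SDF2L1 (1.40 ± 0.20) and HSPA5 (1.05 ± 0.08). NaHCO3 differs as well as 2-DG in this comparison.

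**Figure D3:**
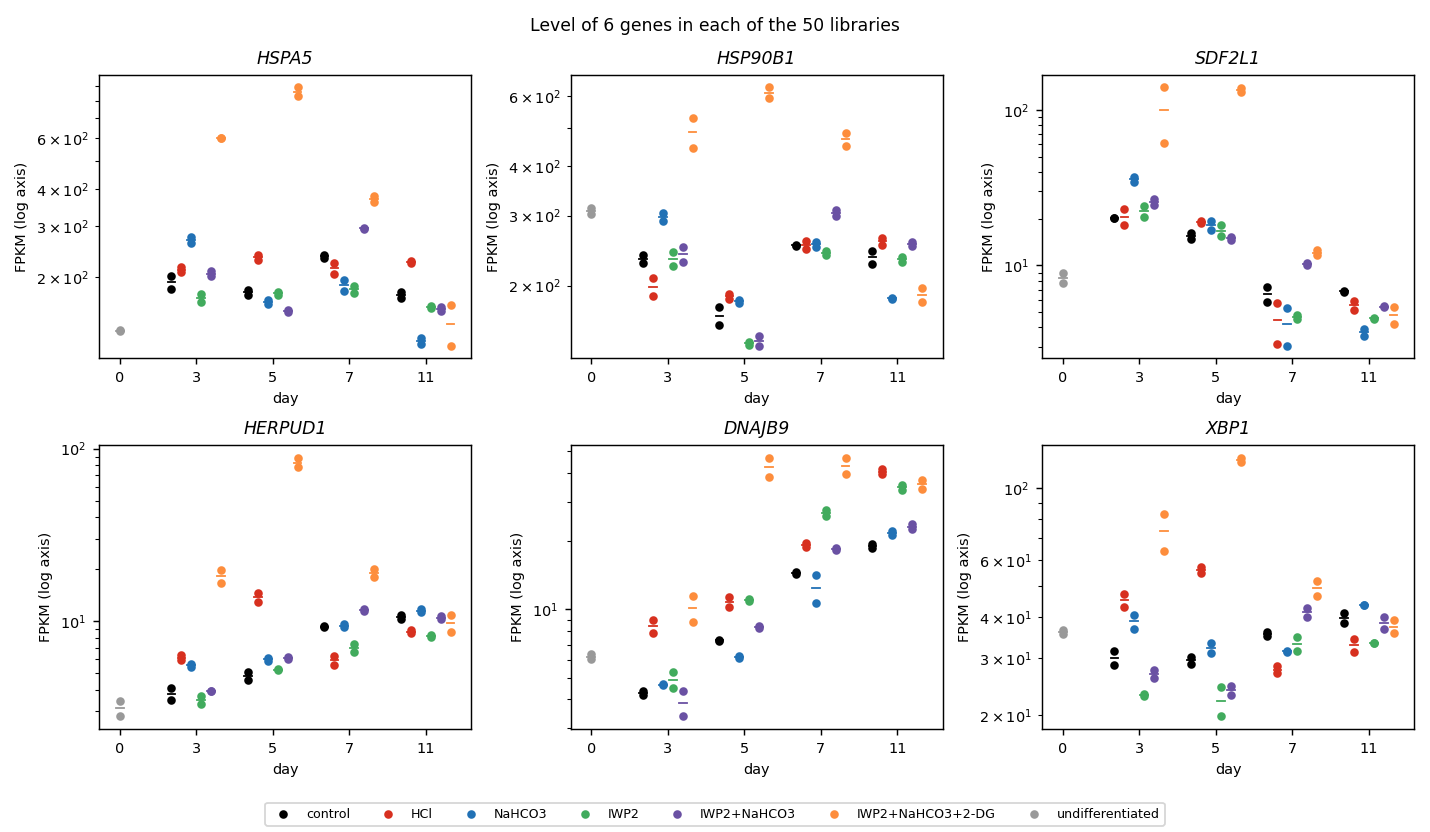
FPKM (log y axis) of HSPA5, HSP90B1, SDF2L1, HERPUD1, DNAJB9 and XBP1 in each of the 50 libraries by day (x axis), with points for libraries, short bars for group means and colours for treatments. On day 5 both 2-DG libraries stand above all other treatments in the 6 panels, and on day 3 in all but DNAJB9, where 1 of them (8.82 FPKM) is below an HCl library (8.98). On day 11 HSPA5 with 2-DG is at 117 and 161 FPKM, in and below the range of the others.

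Members with an ERSE or ERSE-II (the sequences above) had a median log2 fold change of 2.46 with 2-DG on day 5, with a range of 1.46 to 3.93, and all 11 rose. The 17 members in the table with neither had a median of 1.35, a range of -0.43 to 2.71, and 15 rose. On day 3 the medians were 1.17 and 0.71, with 7 of 11 and 5 of 17 called. On day 7 they were 0.33 and 0.31, with 0 of 11 and 1 of 17 called, and on day 11 they were -0.17 and -0.19. These values are a description and the difference between the classes was not tested. MANF, with 2.71, and PDIA4, with 2.54, were the highest of those without a match.

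Genes of the integrated stress response, a list of 16 drawn up for the PERK arm, were called under 2-DG as well. Whether PERK raised them was not tested. Of the 16, 13 rose on day 3 and 14 on day 5, with 0 lower, beside 3.59% and 16.5% of all genes called, and the median log2 fold changes were 2.25 and 4.28. On day 3 the median was 1.70 without replicate 1 of the 2-DG group and 2.46 without replicate 2. CHAC1, a glutathione-degrading enzyme induced by ATF4, was at 122 and 119 FPKM with 2-DG on day 5 and at 0.540 and 0.6 without (log2 7.89 ± 0.31, adjusted p = 1.99e-13). TRIB3, a pseudokinase of the same list, was at 76.3 and 81.2 against 0.810 and 0.850 FPKM (log2 6.73 ± 0.23). SLC7A11, the cystine transporter, was at 8.94 and 12.5 against 0.160 and 0.140 (log2 6.32 ± 0.30). On day 7, 10 of the 16 rose and 0 fell, beside 16.3% of all genes called. On day 11, 2 rose and 3 fell, beside 21.1%.

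Neighbouring lists of the secretory pathway also held calls on day 5, when 16.5% of all genes were called and 7.04% were called higher. The lists differ in size and were not tested against each other. Of 15 genes of translocation and signal peptide cleavage 8 rose and 0 fell (median 1.02), led by SEC11C, a signal peptidase subunit, with a log2 fold change of 2.66 ± 0.22. Of 13 genes of N-glycan transfer and glycoprotein quality control 4 rose (median 0.73), among them STT3A (1.52 ± 0.09) and RPN1 (1.47 ± 0.10), both of the oligosaccharyltransferase. Of 15 genes of COPII export and KDEL retrieval 4 rose (median 0.60), led by SEC24D, a cargo adaptor, with 1.65 ± 0.13.

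Of 12 tested genes of ER oxidation and further disulfide isomerases 3 rose (median 0.73), the oxidase ERO1LB by 2.69 ± 0.29, TXNDC5 by 2.06 ± 0.16 and PDIA5 by 1.41 ± 0.11. Of 16 further ERAD genes 2 rose, UBE2J1, an ER ubiquitin-conjugating enzyme (2.03 ± 0.10), and VIMP, a derlin-binding protein (1.62 ± 0.19). Of 4 hexosamine genes GFPT1, the rate-limiting enzyme, rose by 1.74 ± 0.14. Of 8 ATF6-type factors and proteases 2 rose, CREB3L1 (1.75 ± 0.11) and CREB3 (1.43 ± 0.13), and 2 fell, CREB3L3 and CREB3L4 (-1.33 ± 0.17). Of 12 cytosolic and mitochondrial chaperones 1 rose, the small heat shock protein HSPB1 (2.20 ± 0.27), with a median of 0.37. The shares of the further ERAD genes and of the cytosolic and mitochondrial chaperones lie near that background. On day 3 the lists other than that of the integrated stress response held 2 calls in all, SEC11C (log2 1.23) and ERO1LB (1.61). The median of the translocation list on day 3 was 0.25 without replicate 1 of the 2-DG group and 0.78 without replicate 2.

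HCl gave few calls among the members on any day. On day 5, 3 of 31 rose and 1 fell, beside 20.0% of all genes called, so the members' share of 12.9% was below the background. HERPUD1 was at 14.6 and 12.99 FPKM with HCl and at 5.07 and 4.59 in the control (log2 1.55 ± 0.13, adjusted p = 7.31e-09). EIF2AK3 was at 10.6 and 10.6 against 4.66 and 4.92 FPKM (log2 1.18 ± 0.13, adjusted p = 1.99e-07). EDEM2 fell, at 6.10 and 5.44 against 13.6 and 13.5 FPKM (log2 -1.20 ± 0.14, adjusted p = 5.95e-07). The libraries with HCl and the control did not overlap in any of the 3, which was a condition for naming EIF2AK3 and EDEM2 here.

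No luminal chaperone, lectin chaperone or disulfide isomerase was called with HCl on day 5. HSPA5 was at 238 and 229.8 FPKM against 175 and 182 (log2 0.43 ± 0.10, adjusted p = 9.86e-04), and XBP1 was at 57.1 and 54.9 against 30.2 and 28.7 (log2 0.97 ± 0.14, adjusted p = 1.02e-05). With no minimum fold, 18 members were past an adjusted p of 0.05 upward and 2 downward, beside 20.7% and 21.2% of all genes. The member median was 0.33 and that of all genes -0.02. In the same cultures 13 of the 16 genes of the integrated stress response rose and 0 fell, with a median of 2.73. CHAC1 was at 28.1 and 19.6 FPKM with HCl against 0.760 and 0.330 (log2 5.45 ± 0.30, adjusted p = 1.97e-11). HCl and 2-DG have different control groups, and the difference between their effects was not tested.

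Cell markers moved with HCl on day 5 as well. Summed primitive streak markers (5 genes, all detected with HCl) were at 70.0 and 71.1 FPKM with HCl and at 8.47 and 8.34 in the control. Stromal markers were at 84.9 and 81.1 against 859 and 984 FPKM, and heart markers at 328 and 340 against 569 and 562. Their part in the results of day 5 was not tested.

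On day 3, 3 members rose with HCl and 1 fell, beside 10.6% of all genes called. EIF2AK3 was at 7.93 and 7.74 FPKM against 3.58 and 3.53 (log2 1.22 ± 0.13, adjusted p = 5.83e-07), and DNAJB9 at 7.87 and 8.98 against 4.19 and 4.38 (log2 1.06 ± 0.16, adjusted p = 3.64e-05). ERN1 was at 1.76 and 1.73 against 0.900 and 0.900 FPKM (log2 1.03 ± 0.24, adjusted p = 0.00229). The groups did not overlap in these genes, which was a condition for naming EIF2AK3 here. DNAJB9 had 0.962 without replicate 2 of the HCl group and was then not called. Pluripotency markers were at 696 and 813 FPKM with HCl on day 3 against 416 and 479. The sum of 3 neural markers was at 9.5 and 12.7 against 0.66 and 0.45. Of these 3 only SOX3 passed the filter on low values, and the sum was 19.0 and 15.5 in undifferentiated cells. The part of both marker sets in these results was not tested. HSPA5, with 0.23 ± 0.10 (adjusted p = 0.079), and HSP90B1, with -0.15 ± 0.12 (adjusted p = 0.381), were not called.

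On day 7, 0 members were called with HCl, beside 14.3% of all genes. With no minimum fold the edgeR test gave 5 upward and 9 downward, beside 23.1% and 20.0%. HERPUD1, at 6.30 and 5.57 FPKM with HCl against 9.28 and 9.35, had a log2 fold change of -0.60 ± 0.10 (adjusted p = 5.93e-06), opposite in sign to day 5. On day 11, 2 rose, DNAJB9 and DERL3, and 0 fell, beside 21.1% of all genes. DNAJB9 was at 41.9 and 39.5 FPKM against 18.8 and 19.5 (log2 1.17 ± 0.09, adjusted p = 6.82e-13). Heart markers were then at 6060 and 6116 with HCl against 647 and 889 FPKM in the control, and their part in this result was not tested.

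The effect of HCl differed between days for a few members by the test of the difference. From day 3 to day 5 it was higher for DERL3 (2.84 ± 0.35, adjusted p = 4.24e-06) and lower for EDEM2 (-1.41 ± 0.20, adjusted p = 1.48e-05), beside 16.4% of all genes called. From day 7 to day 11 it was higher for EDEM2 (1.74 ± 0.15, adjusted p = 1.03e-10) and DNAJC3 (1.02 ± 0.13, adjusted p = 7.83e-08), beside 17.1%. EDEM2 with HCl stood at 6.10 and 5.44 FPKM on day 5, 5.18 and 4.48 on day 7, and 9.06 and 8.82 on day 11. In the control it was at 13.6 and 13.5, 9.21 and 9.16, and 5.34 and 5.06 on those days. DNAJC3 was at 8.00 and 7.77 FPKM with HCl against 12.3 and 11.1 on day 7, and at 12.3 and 13.7 against 9.13 and 10.3 on day 11. Left out in turn, 3 libraries each took DNAJC3 below the fold threshold, to between 0.914 and 0.947.

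**Figure D4:**
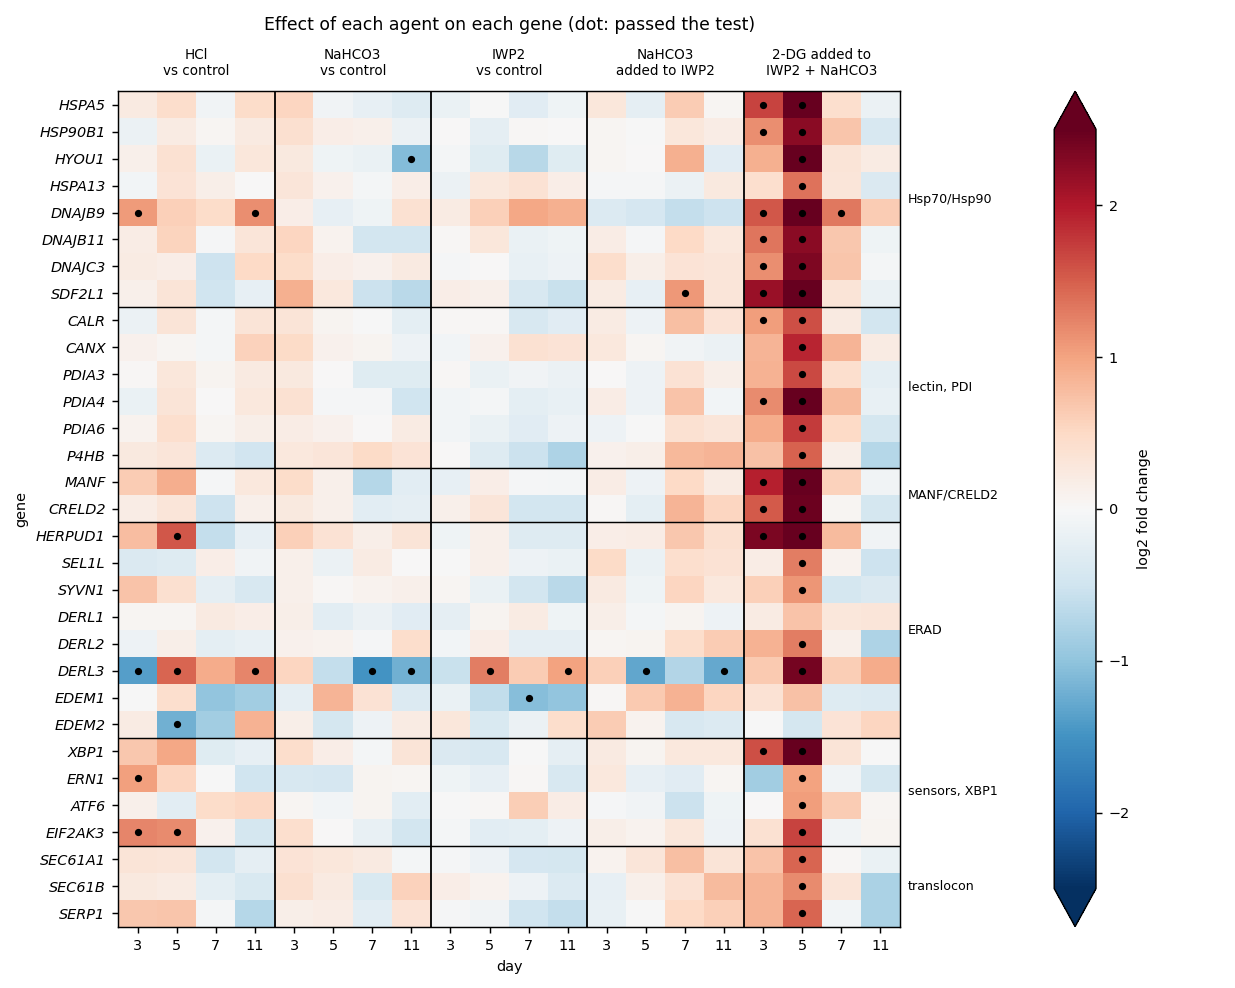
Log2 fold change of each of the 31 genes (y axis, grouped by role) for 5 agents on 4 days (x axis), with colours saturating at 2.5 in either direction and dots for genes that passed the test. The block of dots on day 5 of 2-DG (28 genes) and the smaller one on day 3 (12 genes) hold most of the calls. DERL3 has 9 of the 19 dots in the 16 columns of the other agents. Of all genes, 16.5% and 3.59% were called on days 5 and 3 of 2-DG, and 0.613% to 21.1% in those 16 columns.

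NaHCO3 alone gave few calls, in comparisons that share the control libraries with HCl and IWP2. On days 3 and 5, 0 members were called, beside 4.08% and 6.39% of all genes. On day 3 the edgeR test with no minimum fold gave 12 members upward and 0 downward, beside 6.75% and 5.55% of all genes, with a member median of 0.31. HSPA5 was then at 263 and 274 FPKM against 183 and 202, and SDF2L1 at 34.6 and 36.8 against 20.1 and 20.1. On day 5 that rule gave 3 upward and 1 downward, beside 7.72% and 8.1%. On day 7, 1 member fell, DERL3, beside 10.2%, and on day 11, 2 fell, DERL3 and HYOU1, beside 16.9%. HYOU1 was at 8.92 and 8.73 FPKM with NaHCO3 on day 11 against 20.6 and 22.4 (log2 -1.09 ± 0.09, adjusted p = 9.45e-12). Stromal markers were at 6827 and 7022 FPKM there against 3215 and 3203 in the control, and their part in this result was not tested.

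IWP2 alone gave 0 calls on day 3, beside 0.613% of all genes, and the edgeR test with no minimum fold gave 0 as well, beside 1.17%. DERL3 rose on days 5 and 11, beside 6.77% and 14.9% of all genes called, and the call of day 11 was lost under DESeq2 (1.0), with RLE factors (0.995) and with no filter on low values (0.981). EDEM1 fell on day 7, beside 16.4%, at 3.29 and 3.46 FPKM against 8.29 and 6.90 (log2 -1.07 ± 0.09, adjusted p = 1.11e-11), and it had -0.94 and no call without replicate 1 of the control. Heart markers stood at 6418 and 5893 FPKM with IWP2 on day 7 and at 462 and 523 in the control, and their part was not tested.

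NaHCO3 added to IWP2 gave 0 calls on day 3, beside 3.19% of all genes, and the edgeR test with no minimum fold gave 2 upward and 0 downward, beside 4.99% and 3.59%. DERL3 fell on days 5 and 11, beside 5.81% and 18.5%. On day 7 SDF2L1 rose, beside 16.7%, at 10.3 and 10.0 FPKM with NaHCO3 against 4.80 and 4.5 (log2 1.08 ± 0.20, adjusted p = 4.64e-05). That day had small differences in many members. With no minimum fold 22 were past an adjusted p of 0.05 upward and 5 downward, beside 24.6% and 24.0% of all genes, with a median of 0.42 over the members and 0 over all genes. HSPA5 was at 294 and 294 FPKM against 177 and 187 (log2 0.64 ± 0.08), CALR at 449.7 and 465 against 254 and 269 (0.75 ± 0.08), and P4HB had 0.81 ± 0.07. Stromal markers were at 2542 and 2411 FPKM in these libraries against 338 and 518 with IWP2 alone, and their part was not tested.

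DERL3 was the member called most often outside 2-DG. The 16 comparisons of HCl, NaHCO3 and IWP2 held 19 calls among 496 gene tests, of which 9 were DERL3, and 22 members had none. In these comparisons the share of members called ran from 0% (as with IWP2 on day 3) to 12.9% (HCl, days 3 and 5). That of all genes ran from 0.613% (IWP2, day 3) to 21.1% (HCl, day 11). Group means of DERL3 ran from 0.14 to 3.27 FPKM, so each of its calls rests on few reads. It was higher with HCl on days 5 and 11 and with IWP2 on days 5 and 11, and lower with HCl on day 3, with NaHCO3 on days 7 and 11, and with NaHCO3 added to IWP2 on days 5 and 11. On day 5 it was at 2.14 and 1.58 FPKM with HCl and at 1.84 and 1.5 with IWP2 against 0.730 and 0.650 in the control. On day 11 it was at 0.95 and 0.670 with HCl and at 0.160 and 0.120 with NaHCO3 against 0.390 and 0.340. Leaving out a single library ended the call with NaHCO3 on day 7 (-1.07 without replicate 1 of NaHCO3), with HCl on day 11 (0.955 without replicate 1 of HCl), with NaHCO3 on day 11 (-1.0 without replicate 2 of NaHCO3, -1.12 without replicate 1 of the control) and with IWP2 on day 11 (0.956 without replicate 2 of IWP2, 0.935 without replicate 2 of the control). DERL1 was called in none of the 20 comparisons of an agent.

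In the control cultures few members were called over time. From day 3 to day 5, EDEM2 rose, from 6.36 and 5.91 to 13.6 and 13.5 FPKM (log2 1.20 ± 0.14, adjusted p = 5.91e-07), and DERL3 fell, beside 18.1% of all genes called. From undifferentiated cells to day 7, 2 members rose and 1 fell, beside 34.9%, and to day 11, 4 rose and 1 fell, beside 39.4%. HERPUD1 was at 3.45 and 2.82 FPKM in undifferentiated cells, 9.28 and 9.35 on day 7, and 10.3 and 10.9 on day 11 (log2 1.40 ± 0.10 and 1.65 ± 0.10 against undifferentiated). DNAJB9 was at 6.36 and 6.02, 14.7 and 14.4, and 18.8 and 19.5 FPKM (1.06 ± 0.10 and 1.53 ± 0.10). SEL1L rose by day 11, from 8.33 and 8.25 to 19.3 and 18.4 FPKM (1.08 ± 0.06), as did ERN1, from 0.850 and 0.800 to 1.97 and 1.69 (1.05 ± 0.12), and DERL3 fell on both days. ERN1 had 0.951 and no call without replicate 1 of the control of day 11.

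The most abundant chaperones were not called in the control. HSPA5 was at 133 and 131 FPKM in undifferentiated cells, 234 and 239 on day 7, and 169.95 and 178 on day 11 (log2 0.68 ± 0.08 and 0.30 ± 0.08 against undifferentiated). HSP90B1 was at 303 and 314, 252 and 253, and 227 and 245 FPKM (-0.46 ± 0.06 and -0.49 ± 0.06). In the first gene the later libraries lay above the undifferentiated ones, and in the second they lay below. From day 7 to day 11, 0 members were called, beside 10.4% of all genes, and the edgeR test with no minimum fold gave 8 upward and 6 downward, beside 19.7% and 15.6%. Levels of days 3 and 5 come from the other table and were not tested against these.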

How the data were processed

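RNA-seq was done on 50 libraries of H1 cells, 25 groups of 2. Per the labels, a VAHTS Universal V8 kit turned RNA isolated by RNAiso Plus into libraries. Per the submitters' processing notes, cutadapt 1.9.1, HISAT2 2.0.1, HTSeq 0.6.1 and the GRCh37 build were used. Whether counting used strand is not given in the sources used here. The authors deposited raw counts and FPKM per gene in 2 tables, days 3 and 5, and days 7, 11 and 0. FPKM values the authors deposited matched those recomputed from the counts and exonic sizes (median ratio 1).

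Counts were tested in edgeR 4.0.16 (R 4.3.3, limma 3.58.1) with TMM scaling and the robust quasi-likelihood test, fitting every library of a table together with a mean for each group, after keeping genes with 1 FPKM or more in any 2 libraries (17286 and 18451 genes). Adjusted p-values are Benjamini-Hochberg over those genes, and SE is the size of the log2 change over √F. On simulated data for HCl against control, 52% of 2-fold and 100% of 3-fold changes were called on day 3. On day 11 these were 48% and 100%. The simulated sets held 16901 and 18032 genes, and changes were put only into a sample of well-counted genes, with a common spread. The share at 2-fold follows largely from the 2-fold minimum itself. Recovery for genes with few counts and for unequal pairs of libraries was not measured. DESeq2 1.42.0, RLE factors, no filter, no minimum fold, a replicate block, the compared days alone and leaving out each library were alternatives. Tables and figures used Python 3.11.15, pandas 2.3.3, numpy 2.4.6 and matplotlib 3.10.9.

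Members and lists were chosen with earlier results of these data known. Genes given by library were HSPA5, SDF2L1, HERPUD1, XBP1, DNAJB9, HSP90B1 and CALR where a result turned on them, and up to 4 called members per comparison with the largest change, at 5 FPKM or more in the higher group and with libraries that did not overlap. Up to 3 such genes were named per pathway list, and the 2 members with the largest difference per contrast between days. Other genes were named after their values were seen. Promoter sequences are from RefSeq, GRCh38.p14, matched by symbol, and gene positions are GRCh37 as deposited.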

Additional observations from a re-analysis of the deposited data

Results flagged for a closer look

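Some effects differed between days by the test of the difference itself, in edgeR over all genes of a table. The effect of HCl differed between day 5 and day 3 for 2 members, beside 16.4% of all genes: DERL3 was higher by 2.84 and EDEM2 differed by -1.41 on the log2 scale. Between day 11 and day 7 it differed for 2 members, EDEM2 by 1.74 and DNAJC3 by 1.02, beside 17.1%. The effect of 2-DG differed between day 5 and day 3 for 12 members, beside 11.5% of all genes, with ERN1 at 1.86 and HYOU1 at 1.84 the largest. Between day 11 and day 7 it differed for 2 members, HSP90B1 by -1.10 and SEC61B by -1.10, beside 9.64%. In each contrast with 2 members called, their share (6.45%) lay below that of all genes.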

How the results depend on the processing

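Of 88 called gene results tried under 946 alternative settings, 911 kept direction and call, 35 kept direction and lost the call, and 0 reversed. Of 329 alternative counts of members called, 283 were within 1.5 times the reported one. With no minimum fold the counts for days 3, 5, 7 and 11 were 10, 20, 14 and 22 for HCl and 12, 4, 10 and 23 for NaHCO3. They were 4, 17 and 21 for IWP2 on days 5, 7 and 11, 2, 3, 27 and 21 for NaHCO3 added to IWP2, and 25, 20 and 22 for 2-DG on days 3, 7 and 11. In the control they were 13 for day 5 against day 3, 22 and 21 for days 7 and 11 against undifferentiated cells, and 14 for day 11 against day 7. For the differences between days they were 6 and 15 for HCl and 27 and 21 for 2-DG. Shares of all genes under this rule stand with the results above for some of these comparisons, and for the others they are not given here. These counts therefore show only how far the calls depend on the fold minimum. They are not compared between the 2 tables, whose estimated spread differs. As a coefficient of variation it was 0.1186 for days 3 and 5 and 0.0669 for the other table. Counts of days 3 and 5 rest on a spread that includes the unequal libraries of 2-DG on day 3.

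With no filter 1 member was called with HCl on day 7, and with DESeq2 or RLE factors 0 with IWP2 on day 11, where with no filter DERL3 was lost and EDEM1, lower, was called. Against IWP2 alone, an alternative chosen after seeing the data, 8 were called with 2-DG on day 7. Leaving out 1 library at a time gave 12 to 18 for 2-DG on day 3, 26 to 28 on day 5 and 0 to 1 on day 11 (1 without replicate 2 of 2-DG or replicate 1 of its control). HCl gave 0 to 2 on day 7 (1 without replicate 1 of HCl, 2 without replicate 2 of the control) and 1 to 2 on day 11 (1 without replicate 1 of HCl). NaHCO3 gave 0 to 1 on day 7 (0 without replicate 1 of NaHCO3) and 1 to 2 on day 11 (1 without replicate 2 of NaHCO3 or replicate 1 of the control). IWP2 gave 0 to 2 on day 7 (2 without replicate 2 of IWP2, 0 without replicate 1 of the control) and 0 to 2 on day 11 (0 without replicate 2 of IWP2 or of the control, 2 without replicate 1 of the control). The HCl difference between days 11 and 7 gave 1 to 2 (1 without replicate 2 of HCl on day 11 or replicate 1 of either control), and the 2-DG difference between days 5 and 3 gave 10 to 15. Except where a library was left out or the fold minimum dropped, so that the change is by construction, the cause was not tested. Shares of all genes called with a library left out are not given here. The counts with a library left out therefore show only how far the calls depend on single libraries.

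Replicate numbers were not used as pairs in the reported tests. Deviations of same-numbered libraries correlated at -0.17 to 0.33 over 24 comparisons, above 0.1 in 7 and below -0.1 in 4. The highest was that of HCl against control on day 3. There is no reference value for paired libraries, so these correlations cannot exclude a partial pairing. With the replicate block all 28 counts stayed within 1.5 times, with 12 for 2-DG on day 3. With 2 libraries a group, a lone library was assumed to vary like the other groups. Calls near 2-fold and genes near 1 FPKM are the least certain.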
